A study of Mus musculus with 66 samples.

Results

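H3K36me3 occupancy in the PFC of water-treated adolescent DBA/2J mice was read from 10 of the 66 samples of the series, the H3K36me3 ChIP-seq libraries of 5 male and 5 female pools. The members are the loci and genes with an H3K36me3 island in all 10 of these pools, ordered by the ratio of ChIP reads to input reads of the same islands on chromosomes 1 to 19. Of 344144 islands listed in the 10 pools, 7994 loci (12.9 Mb, 0.526% of these chromosomes) were covered in every pool, and the 400 loci of highest mean ratio (the top 5%) are called the high-ratio loci. At the level of genes, 2075 of 20780 protein-coding genes had an island in all 10 pools.

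The series measured H3K9me3 and H3K36me3 in 44 precipitated libraries after intermittent gavage with ethanol or water, and no ethanol pool entered the present comparisons. Both groups used here, male water and female water, were DBA/2J, an inbred strain, and received water by gavage between PND 29 and PND 42. PFC was collected 24 h after the last gavage, and tissue of 3 mice of the same sex was combined into each pool. Chromatin of each pool was precipitated in 8 technical replicates whose DNA was joined into a single library, so that a library is 1 biological sample. In such bulk tissue, fewer cells carrying the mark and less mark per cell cannot be told apart.

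H3K36me3 is written mainly by Setd2, which travels with elongating RNA polymerase II, so the mark is known for covering the bodies of transcribed genes and for rising toward their 3′ ends. It is bound by PWWP-domain readers such as Dnmt3a, Dnmt3b and Psip1, and it is removed by demethylases of the Kdm4 family, whereas those of the Kdm2 family act mainly on lower methylation states of H3K36. In brain it is used as a record of transcription in the mixed population of neurons and glia. It is commonly found apart from H3K9me3, the mark of silent repeats and heterochromatin, although zinc-finger gene clusters are known for carrying both.

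The sequences below show 4 of the 5 leading loci that were tandem repeats, a leading locus that was not (Madd) and a locus at the middle of the ranking. Of the 12 leading loci, 7 had no tandem repeat window, and neither did 309 of the 400 high-ratio loci. The sequences are 200-base windows of the C57BL/6J reference (GRCm38, plus strand), not reads of the DBA/2J mice. In the first 4 the capitals mark the first copy of a unit that repeats along the window, in the Madd window they mark bases outside annotated repeats, and the last window lies wholly in annotated repeats and has no capitals. The windows are chr17:4626201-4626400 (no gene), chr13:107859001-107859200 (Zswim6), chr13:13754201-13754400 (Lyst), chr4:6432001-6432200 (Nsmaf), chr2:91168601-91168800 (Madd) and chr3:106854801-106855000 (middle of the ranking).
chromosome 17 locus: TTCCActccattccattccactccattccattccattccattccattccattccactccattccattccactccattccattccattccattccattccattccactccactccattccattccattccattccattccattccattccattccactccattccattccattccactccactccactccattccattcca
Zswim6: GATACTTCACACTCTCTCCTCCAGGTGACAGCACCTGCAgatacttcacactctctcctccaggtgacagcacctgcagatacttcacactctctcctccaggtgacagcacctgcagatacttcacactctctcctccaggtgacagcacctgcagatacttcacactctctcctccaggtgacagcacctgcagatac
Lyst: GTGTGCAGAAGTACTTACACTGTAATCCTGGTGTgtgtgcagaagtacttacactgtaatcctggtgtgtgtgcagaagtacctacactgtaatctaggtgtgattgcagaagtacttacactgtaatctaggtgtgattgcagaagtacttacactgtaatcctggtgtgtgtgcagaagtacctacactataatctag
Nsmaf: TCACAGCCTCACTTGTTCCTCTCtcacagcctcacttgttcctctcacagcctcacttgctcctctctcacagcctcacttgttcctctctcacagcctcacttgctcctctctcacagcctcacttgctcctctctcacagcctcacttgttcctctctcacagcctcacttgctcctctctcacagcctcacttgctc
Madd: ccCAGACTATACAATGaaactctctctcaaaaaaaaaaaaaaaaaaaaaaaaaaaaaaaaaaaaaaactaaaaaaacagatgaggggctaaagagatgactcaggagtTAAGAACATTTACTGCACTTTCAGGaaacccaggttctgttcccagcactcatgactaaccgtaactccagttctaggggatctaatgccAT
middle of the ranking: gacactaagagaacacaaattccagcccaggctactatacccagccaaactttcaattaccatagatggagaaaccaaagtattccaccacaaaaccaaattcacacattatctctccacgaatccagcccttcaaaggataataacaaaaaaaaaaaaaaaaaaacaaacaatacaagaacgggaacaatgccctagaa

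For each locus and pool, the value is log2 of ChIP reads plus 1 over input reads plus 1 in the island that holds the locus, minus the median of all islands of that pool. A value of 0 is therefore the ratio of the pool's median island, and a value of 1 is 2 times that ratio. Values of genes use the island reads that fall within the gene body in the same way.

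Libraries differed in how much was called and in how much of it was strong. The pools listed 18297 to 41766 islands over 61.6 to 109 Mb, holding 1.80 to 4.07 M ChIP reads, and 34.0 to 78.7% of the islands of a pool had an FDR above 0.01. Protein-coding gene bodies made up 40.3% of the chromosomes but 27.8 to 41.7% of the island length, below the genome's share in 8 of 10 pools. At an FDR of at most 0.01 the gene-body share was 31.3 to 68.4%, with female pools 1, 3 and 4 (31.3, 38.6 and 40.2%) below the genome's share and the other 7 above it. The gene-body and 3′ differences, the shared loci and the sex counts are also given without these 3 pools, and the other results use all 10. The 3 pools were set apart by their gene-body share, so leaving them out itself favours higher gene-body values. All 45 pairs of libraries differed in their ChIP reads at the shared loci (chi-square per degree of freedom of at least 2.56). These reads were apportioned from islands whose extents differ between pools, so the value does not measure an excess over counting noise.

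Gene bodies carried the higher ratios in every pool. The median ratio of islands within protein-coding gene bodies exceeded that of islands outside any gene by 0.29 ± 0.12 on the log2 scale (SD, n = 10), from 0.10 in female pool 1 to 0.45 in female pool 5, and in 10 of 10 pools (two-sided exact sign-flip permutation test, p = 0.00195, the smallest this design can give). Without female pools 1, 3 and 4, left out for their gene-body share, the difference was 0.33. ChIP reads per kb alone differed far less, by 0.04 ± 0.04 (SD, higher in 9 of 10 pools, exact p = 0.0215). Input reads per kb were lower in gene-body islands in all 10 pools, by a mean log2 difference of -0.23 ± 0.12 (SD; exact p = 0.00195). Within islands, the difference in the ratio thus lay more in input reads than in ChIP reads, and the cause was not tested. Islands are called where ChIP reads are dense, which limits how far their ChIP reads per kb can differ. The split therefore does not describe gene bodies as a whole.

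**Figure D1:**
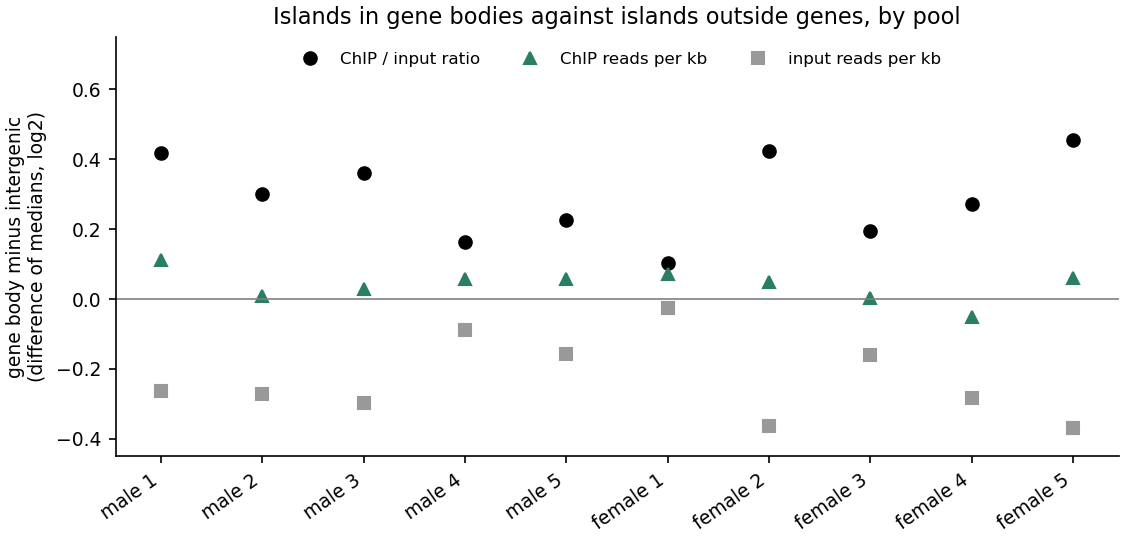
Difference of medians between islands in protein-coding gene bodies and islands outside genes in each of the 10 pools (x axis), on the log2 scale (y axis), for the ChIP to input ratio (circles), ChIP reads per kb (triangles) and input reads per kb (squares). The ratio lies above 0 in 10 of 10 pools, ChIP reads per kb in 9 of 10, and input reads per kb below 0 in 10 of 10.

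Within genes the ratio was higher toward the 3′ end. Bodies of genes of at least 10 kb were cut into 3 equal parts, and islands in the 3′ part exceeded islands in the 5′ part by 0.13 ± 0.07 (SD, n = 10 pools), from 0.02 in male pool 4 to 0.25 in female pool 2, in 10 of 10 pools (two-sided exact sign-flip permutation test, p = 0.00195). Without female pools 1, 3 and 4 the difference was 0.15. Along 10 equal bins of the body, the median ratio went from 0.10 ± 0.04 (SD, n = 10) in bin 1 to 0.22 ± 0.09 in bin 5 and 0.30 ± 0.12 in bin 10. A ratio per bin that was not a median was lower and less even. It was 0.03 in bin 1, 0.11 in bin 5, 0.009 in bin 6 and 0.16 in bin 10. The share of the body under islands had another shape, 2.08% in bin 1, 3.79% in bin 5 and 2.56% in bin 10. Coverage was thus lowest at both ends while the ratio was highest at the 3′ end. Input reads per kb of islands were again lower where the ratio was higher, with a difference of -0.11 between the 3′ and 5′ parts. ChIP reads per kb of islands were higher by 0.02, with the same limit from island calling.

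**Figure D2:**
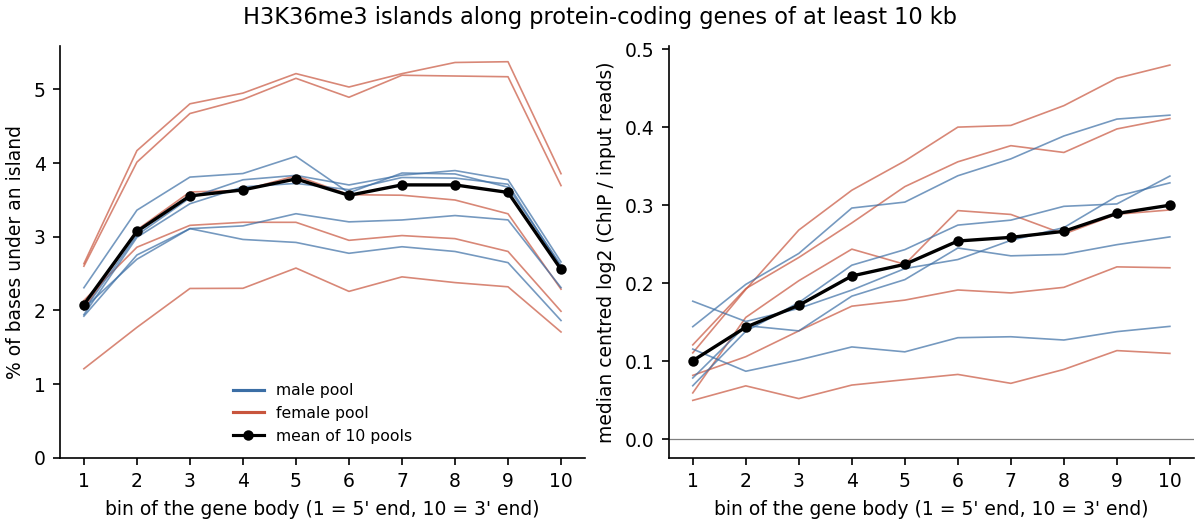
Share of the body under islands (left, percent) and centred log2 ratio of ChIP to input reads (right) in 10 equal bins of the body of 13500 protein-coding genes of at least 10 kb, from the 5′ end (1) to the 3′ end (10). Thin lines are the pools and the black line is their mean. Coverage is lowest in bin 1 (2.08%) and the median ratio is highest in bin 10 (0.30).

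Loci shared by all 10 pools were mostly repeats outside genes. Of 276 Mb covered by an island in at least 1 pool, 38.8% lay in gene bodies, and this share fell with each further pool required, to 26.0% of the 12.9 Mb covered in all 10. Of the 7994 loci, 27.1% overlapped a protein-coding gene body, 9.78% only a non-coding gene and 63.1% no gene. Their median length was 1400 bp, their median GC content 38.1% and their median repeat-masked share 100%. An H3K9me3 island with an FDR of at most 0.01 covered 86.2% of them in at least 5 of the same 10 pools. The median of their mean ratios was -0.15, below that of the median island, 242 loci were above 0 in all 10 pools and 1255 were below 0 in all 10.

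The high-ratio loci had a different make-up. Of the 400, 326 (81.5%) overlapped a protein-coding gene body, 72 overlapped an exon (against 195 of all 7994 loci), and none overlapped a transcription start site, which 33 of all 7994 loci did (0.413%), too few for the count of 0 to set the high-ratio loci apart. Their GC content was higher (median 46.1%) and their repeat-masked share lower (63.2%) than those of all loci. H3K9me3 islands were found in none of the 10 pools at 273 of them (68.3%, against 7.99% of all loci). In every pool both marks were compared with a single input library, since islands with the same boundaries in both lists had equal input reads in 100% of cases, so the marks are not independent in the denominator. The ratio, which chose these loci, came with ChIP reads of 38.8 per kb and input reads of 23.8 per kb, against 31.6 and 30.6 for all loci.

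Across deciles of the ranking these features did not change evenly. The share overlapping a gene body was 20.9% in decile 1, the lowest, 20.8% in decile 5, 32.9% in decile 9 and 62.6% in decile 10. Loci with no H3K9me3 island made up 8.64%, 2.38%, 8.01% and 44.8% of the same deciles. Most of the change in make-up therefore fell between deciles 9 and 10, whereas median input reads per kb declined through the whole ranking, from 34.9 to 26.1. Median ChIP reads per kb went from 30.4 to 37.1.

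**Figure D3:**
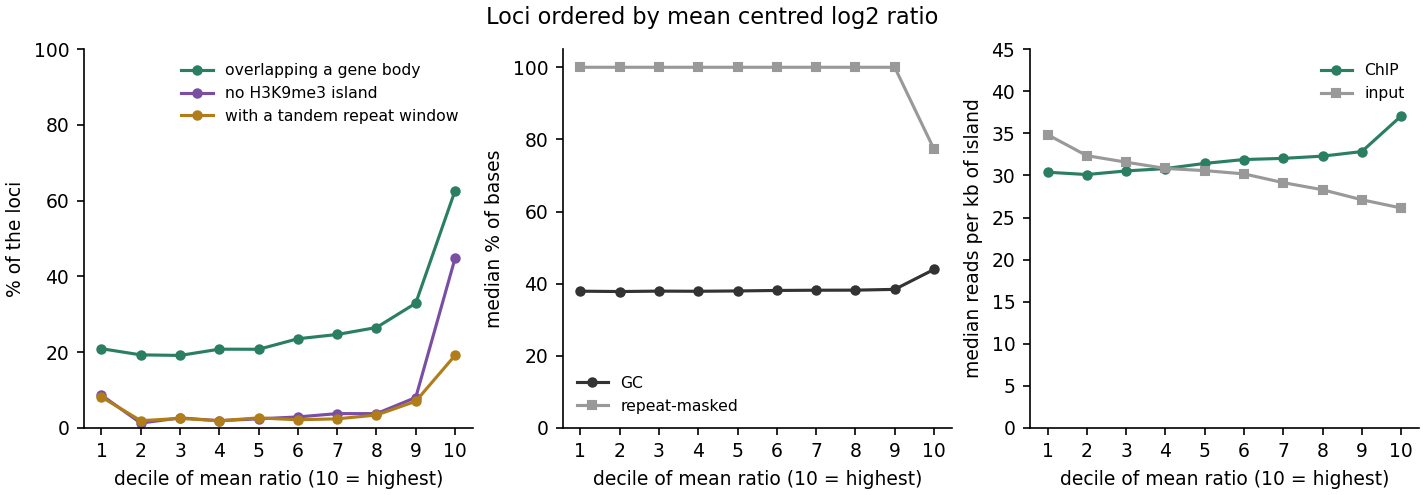
Loci with an island in all 10 pools in deciles of their mean centred log2 ratio (x axis, 10 is highest). The left panel gives the percent of loci overlapping a gene body, lacking an H3K9me3 island or holding a tandem repeat window, the middle panel the median percent of GC and repeat-masked bases, and the right panel median ChIP and input reads per kb. Gene-body overlap reaches 62.6% only in decile 10.

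The 247 loci with an FDR of at most 0.01 in all 10 pools overlapped gene bodies in 64.8% of cases, non-coding genes alone in 17.4% and no gene in 17.8%, with a median of mean ratios of 0.45. By length, gene bodies made up 41.8% of these 247 loci, near the 40.3% of the chromosomes. H3K9me3 islands were present in all 10 pools at 1487 loci, of which 19% overlapped a gene body (median ratio -0.10), and in no pool at 639 loci, of which 78.1% did (median ratio 0.19, median GC 45.3%). The 185 loci with more than 100 input reads per kb on average had a median length of 400 bp and a median ratio of -0.36.

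Each of the 19 autosomes held shared loci, from 112 on chromosome 19 to 705 on chromosome 4. Chromosomes 7 and 17 had the highest medians of mean ratios (-0.10 each, against -0.18 on chromosomes 15 and 18), and chromosome 7 held 45 of the 242 loci above 0 in all 10 pools, 15 of them in the long non-coding RNA gene Snhg14. As a share of its loci this was 9.24%, beside 9.32% on chromosome 11. The share overlapping a gene body ran from 15.7% on chromosome 13 to 38.1% on chromosome 11. Chromosome 13 also had the largest share of loci with H3K9me3 islands in all 10 pools (41.6%) and chromosome 11 the smallest (7.63%).

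The order by ratio was also read in pools left out of the ranking, although every pool had a part in the choice of the 7994 loci. When the top 5% was chosen from the other 9 pools and read in the pool left out, its median was 0.27 to 0.62, against -0.40 to -0.04 for all loci of the same pool, and 79.8 to 82.8% of it overlapped gene bodies. Loci chosen in the 5 male pools had a median of 0.46 in the female pools, and 297 of the 400 (74.3% of each list) were chosen in both sexes. Female pool 1 gave the lowest held-out median (0.27) and female pool 2 the highest (0.62). Over all loci, Spearman correlations between pools were 0.29 to 0.50 (45 pairs, as a description). Without female pools 1, 3 and 4, 12299 loci were shared, and 89.9% of their top 5% overlapped gene bodies. The choice of these pools by gene-body share itself favours this value. Ranked by ChIP reads per kb alone, with no input, the top 400 held 53 of the same loci and 34.0% overlapped a gene body.

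The locus of highest ratio lay outside genes. It covered chr17:4626201-4626600, 400 bp with 83.8% repeat-masked bases, and the nearest start site was that of Arid1b, 367732 bp away. The male pools 1 to 5 had 148, 238, 158, 187 and 236 ChIP reads on 16, 22, 27, 30 and 29 input reads. The female pools 1 to 5 had 242, 298, 325, 72 and 147 ChIP reads on 23, 45, 44, 32 and 36 input reads. The centred log2 ratio was lowest in female pool 4 (1.41), highest in female pool 1 (3.32) and had a mean of 2.47 ± 0.63 (SD, n = 10). Its lowest pool overlapped the range of the next locus, and its mean was the highest of all. H3K9me3 islands covered it in 3 pools.

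A run of short tandem repeats marked 5 of the 12 leading loci. A 200-bp window was called a tandem repeat when at least 80% of its bases matched the reference at a fixed shift of 5 to 150 bases. Both windows of the chromosome 17 locus met this at a shift of 5 bases (up to 93.0% of bases), as the printed TTCCA units show. All 8 windows in Zswim6 met it at 39 bases (100%), 10 of 11 in Lyst at 34 bases, 7 of 7 in Ccdc93 at 130 bases (96.5%) and 5 of 5 in Nsmaf at 23 bases (99.5%). Only the chromosome 17 locus was mostly repeat-masked, and the other 4 had between 0 and 1.23% masked bases.

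At least 1 tandem repeat window was found in 91 of the 400 high-ratio loci (22.8%), the 5 above included, against 408 of 7994 loci (5.10%). By windows, 12.2% of those in high-ratio loci and 1.95% of those in all loci were tandem repeats, against 74 of 23959 windows taken every 100 kb along the chromosomes (0.309%). Loci with a tandem repeat were found at both ends of the ranking, 8.14% of decile 1 and 19.1% of decile 10, with 1.88 to 7.01% in the deciles between. The gene-body share was nearly as high without them, as 245 of the 309 high-ratio loci without a tandem repeat (79.3%) overlapped a gene body, against 25.6% of the 7586 loci without one. Past the 12 leading loci, the next without a tandem repeat lay in Eif2d, a translation factor (mean 0.87), outside genes on chromosome 19 (chr19:31849201-31849400, 0.87), and in Uggt2, a glycoprotein quality-control enzyme (0.87), Crnkl1, a spliceosome component (0.86), and Hnrnpul1, an RNA-binding protein (0.86). Copy numbers of these repeats in DBA/2J were not analysed here.

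Of the 12 leading loci, 10 overlapped a protein-coding gene body, 7 of them in introns alone. Zswim6 (chr13:107858401-107860000, within a non-coding transcript record of that name) had a centred log2 ratio of 0.85 to 1.81 over the pools (median 1.38), on 90 to 200 ChIP reads and 39 to 60 input reads. Lyst, a regulator of lysosomal trafficking (chr13:13753201-13755400, 772 of 2200 bp exonic), had 0.49 to 1.63 (median 1.05). Ccdc93, of the endosomal CCC complex (chr1:121483601-121485000, intronic), had 0.57 to 1.52 (median 1.00). All 10 pools were above 0 at each of these loci, which were chosen on the same values. H3K9me3 islands covered the Zswim6 locus in 6 pools, the Lyst locus in 2 and the Ccdc93 locus in 9, so that each of the 4 highest loci had such islands in some pools, unlike most high-ratio loci.

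The next loci lay in genes of splicing. At Gpatch1, a spliceosome-associated protein (chr7:35278401-35279000, intronic), the ratio was 0.58 to 1.69 (median 0.84). At U2af2, the large subunit of the factor that binds the polypyrimidine tract (chr7:5067201-5069400, with 1673 of 2200 bp exonic), it was 0.29 in female pool 1, 0.41 in female pool 4 and 0.81 to 1.34 in the other pools (median of 10, 1.07). The U2af2 locus had the most exonic bases of the 12 and no H3K9me3 island in any pool.

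At Madd, a regulator of vesicle-bound Rab GTPases (chr2:91168001-91169600, intronic), the ratio was 0.73 to 1.23 (median 0.92), with an SD of 0.19, the smallest of the 12. Nsmaf, an adaptor of the TNF receptor (chr4:6431601-6432600, intronic), had 0.39 to 1.55 (median 0.90). The SDs over pools at these loci exceeded the differences between their means, and their ranges overlapped.

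The last 3 of the 12 were Mfn2, a mitofusin of the outer mitochondrial membrane (chr4:147880201-147881200, 0.50 to 1.41, median 0.96), Dnajc3, a co-chaperone of the endoplasmic reticulum (chr14:118953401-118954200, 0.07 to 1.70, median 0.83), and Ttbk1, a neuronal tau kinase (chr17:46474601-46475200, 0.52 to 1.22, median 0.88). All 3 were intronic and had H3K9me3 islands in no pool. At the edge of the high-ratio loci, the last inside (chr12:26035801-26037000, no gene) and the first outside (in Cspp1, chr1:10092201-10093400) both had means of 0.28. Female pool 4 was the lowest at 4 of the 12 leading loci and female pool 1 at 3.

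**Figure D4:**
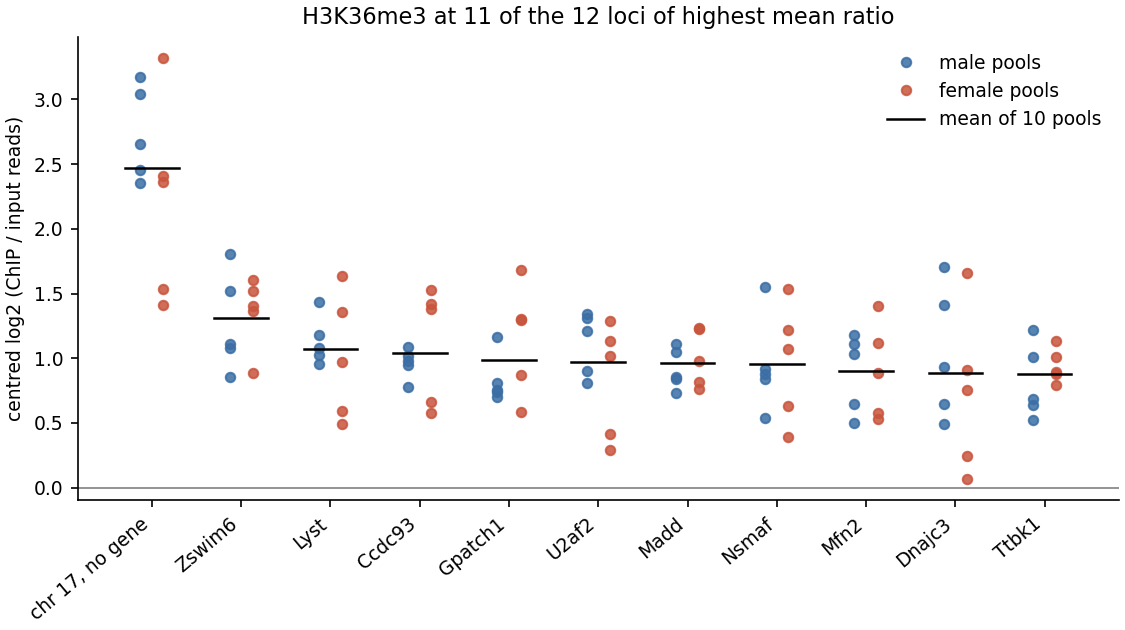
Centred log2 ratio of ChIP to input reads (y axis) in each male and female pool at 11 of the 12 loci of highest mean ratio (x axis), with a line at the mean of the 10 pools. All 110 points lie above 0 at these loci, which were chosen on the same values. The chromosome 17 locus has the highest mean (2.47).

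Length and ratio went separate ways. The 3 longest loci all lay on chromosome 8 and were at or below the median island. The 5S rRNA gene cluster (chr8:123537201-123624200, 87.0 kb) had a mean ratio of -0.14 ± 0.16 (SD, n = 10), and the loci around Gm15319 (63.8 kb) and Gm21119 (62.2 kb) had -0.28 ± 0.19 and -0.10 ± 0.20. The lowest of all loci, chr1:24611601-24616200, had a mean of -3.52 with 4174 input reads per kb, and 98.5% of its 31-base words also occur in the mitochondrial genome.

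Longer protein-coding genes were covered more often, and genes of middle length had the higher ratios. An island in all 10 pools was present in 2075 genes (9.99%), with a median length of 101 kb against 17.6 kb for all genes. The share rose from 0.759% of genes under 3 kb to 14.5% of genes of 30 to 100 kb and 77.8% of genes over 300 kb. The median ratio of these genes was highest at 10 to 30 kb (0.27) and lay at -0.06 over 300 kb. Over all 2075 the median was 0.03, 436 genes were above 0 in all 10 pools and 181 were below 0 in all 10. High-ratio loci were found in 301 genes (1.45%) with a median length of 43.7 kb. Within gene bodies, 18.5% of high-ratio loci lay in the 5′ part, 43.4% in the middle and 38.2% in the 3′ part, against 31.2, 37.5 and 31.3% of all loci.

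The 15 genes of highest ratio were taken from 1005 genes that had a locus of at least 1000 bp and at least 50 input reads in every pool. Covered genes outside these 1005 had means of up to 1.01. Kif5a, a neuronal kinesin heavy chain of axonal transport, led with 0.42 to 1.17 over the pools (median 0.81, mean 0.81 ± 0.26, SD), on 95 to 354 ChIP reads and 63 to 154 input reads. Ccdc93 followed with a mean of 0.80 ± 0.17, Gpatch1 with 0.80 ± 0.18 and Dip2a with 0.79 ± 0.23. These differences between neighbours are smaller than the SDs. Each of the 15 genes was above 0 in all 10 pools, but they were chosen on these same values. Of the 2075 covered genes of any kind, 436 were above 0 in all 10 pools.

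Among the others, Atl1, an atlastin that shapes the endoplasmic reticulum, had 0.26 to 1.38 (median 0.80), Washc2, of the endosomal WASH complex, had 0.52 to 1.16 (median 0.68), and Vps13d, a lipid transfer protein, had 0.50 to 0.98 (median 0.59). Snx2, a sorting nexin of the retromer, had 0.09 in female pool 1 and 0.30 in female pool 4 against 0.42 to 1.15 elsewhere, and Zfyve26, also of endosomes and lysosomes, had 0.28 to 0.88 (median 0.65). Mlycd, the malonyl-CoA decarboxylase of fatty acid metabolism, had 0.36 to 1.19 (median 0.73). Other genes of the 15 were Thada (mean 0.70 ± 0.17), the histone acetyltransferase Ep300 (0.68 ± 0.18), and Zfp953 with the overlapping record Gm28041 (0.65 ± 0.28), which share the same reads and cannot be told apart. Female pool 1 had the lowest value in 9 of the 15.

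Most genes with a high-ratio locus had a single one. The number was 1 in 273 genes, 2 in 22 and 3 in 6. Those 6 were Brsk1, a kinase of neuronal polarity (gene mean 0.60), Supt5, the elongation factor that binds RNA polymerase II (0.58), Kif1bp, a kinesin-binding protein (0.53), the helicase Dhx30 (0.41), the chromatin factor Arid4a (0.41) and the glyoxalase Glo1 (0.04). In the first 5 every locus of the gene was a high-ratio locus, whereas Glo1 had 3 of 6. Of the genes with 2, the highest means after Kif5a and Gpatch1 were those of Ddr1, a collagen receptor kinase (0.71 ± 0.24, SD, n = 10), Zfyve26 (0.64 ± 0.18) and Prkaa1, a catalytic subunit of AMP-activated kinase (0.57 ± 0.25). Outside protein-coding genes, Snhg14 held 24 of the 37 high-ratio loci in non-coding genes, 22 of them with H3K9me3 islands in at least 5 pools.

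The genes most fully covered by loci were of another kind. Among genes of at least 10 kb, loci took up 96.9% of Gm15319, 83.3% of Gm21119, 82.5% of Sfi1, 73.5% of Gm31371, 58.2% of 4930467E23Rik, 57.9% of 2410141K09Rik, 52.5% of Zfp960, 52.1% of Alad, 48.9% of Itln1 and 44.8% of A530032D15Rik. Their mean ratios ran from -0.28 (Gm15319) to 0.20 (Alad), and none held a high-ratio locus. At Sfi1 the islands held 5125 to 9401 ChIP reads and 6069 to 8855 input reads over the pools. How reads of near-identical copies of such records were placed cannot be told from the counts.

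Enzymes, readers and elongation factors linked to H3K36 methylation, with related family members, were considered as a list of 29. An island in all 10 pools was found in 7 of them (24.1%, against 9.99% of all genes), with a median ratio of 0.50 against 0.03. Of the 7, 3 were above 0 in every pool, beside 436 of the 2075 covered genes of any kind. The median length of the list was 39.2 kb, and among all genes of 30 to 100 kb 14.5% were covered, at a median ratio of 0.16. Kdm4a, which demethylates H3K9me3 and H3K36me3, had the highest ratio of the 7, 0.70 to 1.22 (median 0.84, mean 0.93 ± 0.19, SD, n = 10), on 30 to 449 ChIP reads and 13 to 185 input reads. Dnmt3a, the DNA methyltransferase that binds H3K36 methylation, had 0.26 to 0.81 (median 0.64), and Supt6, the elongation factor that couples Setd2 to RNA polymerase II, had 0.38 to 0.74 (median 0.56). These 3 were above the median island in 10 of 10 pools, with female pool 1 lowest for Dnmt3a alone.

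Among the other writers, Nsd3 (-0.16 to 1.39, mean 0.50 ± 0.39) and Nsd1 (-0.12 to 0.65, mean 0.35 ± 0.22) were above 0 in 9 of 10 pools. The demethylases Kdm2a (-0.40 to 0.61, mean 0.29 ± 0.30) and Kdm4c (-0.16 to 0.49, mean 0.25 ± 0.17) were likewise above 0 in 9 of 10. Kdm2a was the only member with a shared locus, and this was a high-ratio locus. Setd2 itself had islands in 8 pools, not in female pools 1 and 3, at 0.39 to 0.84. Islands were found in 9 pools for Ash1l, Kdm2b, Kdm4b, Nsd2 and Smyd2, in 8 for Kdm4d and Supt16, in 7 for Morf4l1, in 6 for Iws1, in 5 for Glyr1, in 3 for Hdgfl2, in 2 for Psip1 and in 1 for Brpf1, Dnmt3b and Phf1. Kdm8, Msh6, Phf19, Setd3, Setmar and Zmynd11 had none. Of the members not covered in every pool, Glyr1, a PWWP-domain protein, had a mean of 0.95 ± 0.18 (SD) in its 5 pools and Phf1 1.75 in its 1 pool, both above Kdm4a. Kdm4d, which acts on H3K9 rather than H3K36, had -0.60 to -0.13 in its 8 pools. Setd3 is known mainly as an actin histidine methyltransferase.

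An island in all 10 pools was found in 32 of 62 neuronal and synaptic genes (51.6%, against 9.99% of all genes). A high-ratio locus was held by 5 of them (8.06%, against 1.45% of all genes). Their median length was 173 kb. Of all genes of 100 to 300 kb 34.3% were covered and 3.28% held a high-ratio locus. For genes over 300 kb these shares were 77.8% and 2.59%, so that length was not separated from membership of the list. For the covered members, the median ratio was 0.10, against 0.03 for all covered genes. Means were above 0 in 23 of 32, beside 1129 of the 2075 covered genes of any kind. In all 10 pools, 6 of the 32 were above 0, beside 436 of the 2075. Kif5a and Dlg4, the postsynaptic scaffold PSD-95 (0.53 to 1.21, median 0.72), led the list. These genes are 37.7 and 30.6 kb long, while the longest, such as Dlg2 (mean -0.09, 9 loci) and Csmd1 (-0.19, 5 loci), had more loci at ratios below 0. The calcium channel genes Cacna1a (mean 0.51), Cacna1b (0.39) and Cacna1e (0.36) and the NMDA receptor gene Grin1 (0.29) lay between.

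Of 46 broadly transcribed genes, 9 had an island in all 10 pools (19.6%, against 9.99% of all genes), with a median ratio of 0.46. Means were above 0 in 9 of 9, beside 1129 of the 2075 covered genes of any kind. The median length of the list was 28.3 kb. Of all genes of 10 to 30 kb 4.15% were covered, at a median ratio of 0.27, and 14.5% of those of 30 to 100 kb. Ubr4, a large ubiquitin ligase (0.43 to 1.04, median 0.70), Srrm2, a spliceosome scaffold (-0.08 to 1.11, median 0.83), and Rbm39, a splicing factor (0.33 to 0.88, median 0.59), were highest, followed by Polr2a, the largest RNA polymerase II subunit (mean 0.52). Short and highly transcribed genes such as Actb, Gapdh, Tuba1a, Eef2 and Hspa8 had no island in any pool. None of 75 cytosolic ribosomal protein genes, with a median length of 3.37 kb, had an island in all 10, where the share over all genes of 3 to 10 kb was 0.716%, so that a count of 0 is near this share.

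The glial lists were short, so that 1 or 2 genes set each share. Of 15 astrocyte genes, 2 (13.3%) were covered in every pool (Slc4a4, mean 0.03, and Gpc5, -0.13), of 12 microglia genes 1 (8.33%) was (Itgam, -0.05), and of 21 oligodendrocyte and myelin genes none was, against 9.99% of all genes. Median lengths of the astrocyte, microglia and oligodendrocyte lists were 21.5, 9.25 and 23.5 kb, and of all genes 4.15% of those of 10 to 30 kb and 0.716% of those of 3 to 10 kb were covered. Mbp and Ugt8a had islands in 7 pools, Tcf7l2 in 6 and Cnp in 5, while Mag, Mog, Mobp, Mal, Olig1, Olig2 and Pdgfra had none. As a check of the tissue, islands in at least 1 pool were found at 7 of 7 neuronal markers, 3 of 5 astrocyte, 2 of 6 oligodendrocyte, 0 of 2 precursor and 3 of 3 microglia markers, and at 6 of 10 markers of other tissues. Of all 20780 genes, 11072 had an island in at least 1 pool, so that several of these counts are near the share of all genes. Among neuronal markers, Syt1 was covered in 10 pools, Rbfox3 in 9, Map2 in 8, Slc17a7 in 4, Gad2 in 2 and Snap25 and Gad1 in 1 each. Mean ratios over the pools with an island were -0.14 at Syt1 and -0.13 at Rbfox3. The other neuronal markers were above 0, from 0.09 at Map2 to 1.25 at Snap25. Among glial markers, Aldh1l1 and Cx3cr1 were covered in 8 pools and Gfap and Aqp4 in none, and Ttn, a muscle gene of 279 kb, was covered in all 10 at a ratio of 0.00.

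Gene families with repeated copies are given beside genes of like length. Of 415 C2H2 zinc-finger genes, 60 (14.5%) were covered in all 10 pools, 17 (4.10%, against 1.45% of all genes) held a high-ratio locus, and the median ratio was 0.07. Their median length was 17.1 kb, and of all genes of 10 to 30 kb 4.15% were covered and 1.31% held a high-ratio locus. Zfp667 (0.37 to 1.04, median 0.76), Zfp953 and Zfp13 (0.19 to 1.23, median 0.58) were highest. In the other families, 6 of 1127 olfactory receptor genes (0.532%), 18 of 326 vomeronasal receptor genes (5.52%) and 11 of 56 clustered protocadherin genes (19.6%) were covered in all 10, none held a high-ratio locus, and their medians were -0.18, -0.12 and -0.14. The olfactory receptor genes have a median length of 5.99 kb, and their share was near the 0.716% covered (0.135% with a high-ratio locus) of all genes of 3 to 10 kb. The median lengths of the other 2 families were 10.3 and 88.2 kb, beside shares of 4.15 and 14.5% of all genes of 10 to 30 and 30 to 100 kb. The highest olfactory member, Olfr18, ranged from -0.55 to 0.26. All 11 protocadherins are of the alpha cluster and share the same islands, and how reads of near-identical copies in these families were placed cannot be told from the counts.

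**Figure D5:**
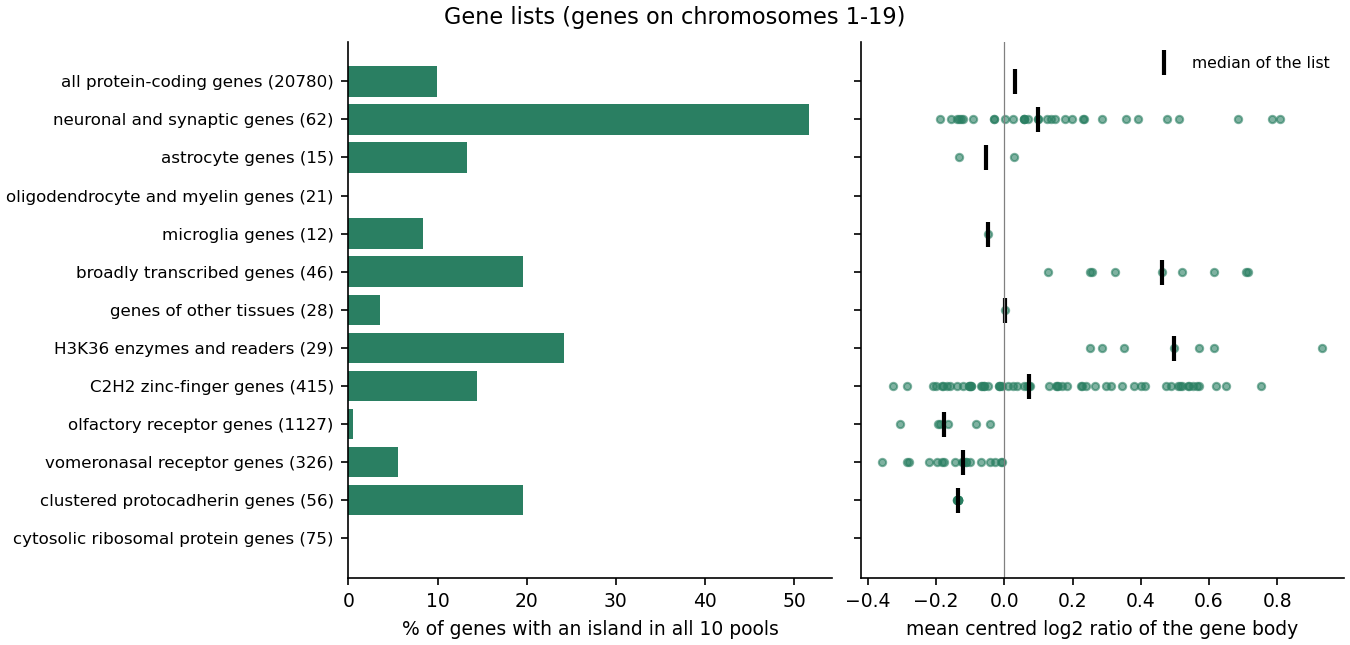
Percent of each gene list with an island in all 10 pools (left, number of genes in parentheses) and mean centred log2 ratio of the covered members (right, points are genes and the bar is the list median). Neuronal and synaptic genes have the largest covered share (51.6%), and the H3K36 and broadly transcribed lists have the highest medians (0.50 and 0.46).

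Sex was the only contrast within the water pools. No locus differed between female and male pools with edgeR's quasi-likelihood test at a Benjamini-Hochberg adjusted p of 0.05 (0 of 7994, 0%). An unadjusted p under 0.05 was found at 357 loci (4.47%), 248 higher and 109 lower in females. DESeq2 with the same input reads also called 0 (304 unadjusted) and limma 0 (373 unadjusted). The direction of the unadjusted loci was not stable. DESeq2 with input reads gave 209 higher and 95 lower in females, and limma gave 267 and 106. The 247 loci with an FDR of at most 0.01 gave 16 and 0. With TMM-scaled ChIP reads and no input, 169 were higher and 157 lower. Without male pool 1, 150 were higher and 238 lower, and without female pools 1, 3 and 4, 142 were higher and 150 lower (0 called).

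Of the 5 loci of smallest p, 4 lay near the bottom of the ranking and had H3K9me3 islands in no pool. The smallest was chr12:97061401-97061600 (no gene), where female pools had -3.84 to -2.58 and male pools -3.65 to -0.78 (edgeR log2 difference -1.17 ± 0.27, SE; adjusted p = 0.351). At chr1:193227801-193228000, in Hsd11b1 and Lamb3, females had -1.75 to -1.07 and males -1.28 to -0.12 (difference -0.82 ± 0.20; edgeR adjusted p = 0.470). At chr2:16379401-16380400, in Plxdc2, females had -0.34 to 0.08 and males -1.05 to -0.29 (difference 0.63 ± 0.17; edgeR adjusted p = 0.616). The other 2 lay in Cdk5rap2 (difference -0.64) and Kcnh1 (-0.86), both lower in females. Ranges of the sexes overlapped at all 5.

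Pool levels did not separate the sexes over all islands. The 7 levels compared (islands, Mb, ChIP reads, ChIP reads per kb, gene-body share, median ratio, and gene-body minus intergenic ratio) had exact permutation p-values of at least 0.317 (adjusted 0.984, n = 5 and 5). For example, the gene-body minus intergenic difference was 0.29 ± 0.15 in females and 0.29 ± 0.10 in males (SD). For islands with an FDR of at most 0.01, ChIP reads per bp were 0.0286 to 0.0359 in females and 0.0360 to 0.0519 in males, without overlap (two-sided exact permutation p = 0.00794, the smallest possible, adjusted 0.0556 over 7 levels). The same islands covered 38.9 to 55.9 Mb in females (mean 45.3) and 17.4 to 46.7 Mb in males (mean 31.3; exact permutation p = 0.0397, adjusted 0.139), so that the lower density in females came with more covered sequence.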

How the data were processed

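H3K36me3 ChIP-seq island lists of 10 water pools (5 male, 5 female) were analysed. Per the submitters' processing notes, the authors trimmed reads with cutadapt, aligned them with Bowtie2 2.4.1 to GRCm38 (mm10) and ran SICER on every library with the matching input as control, using windows of 200 bp and, for H3K36me3, gaps of 600 bp. Replicate pools were kept apart. The study's methods, given for H3K9me3, discarded blacklisted regions and reads with more than a single mapping position, and whether this held for H3K36me3 is not given in the sources used here. The deposited ChIP and input counts were whole reads per island, not normalized. The deposited p-value and q-value (FDR) compare ChIP with scaled input reads, and the deposited fold column is ChIP over input reads scaled by 1 constant in each list. Islands of any FDR were listed. Reads outside islands were not analysed here, so depth is known only within islands.

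Loci were 200-bp windows covered by an island in all 10 pools, joined where adjacent. Log2 ratios (pseudocount 1) were centred at each pool's median island. Genes were those of GENCODE vM21 and exon overlap was taken from the same annotation. Sex was tested with edgeR 4.0.16 (quasi-likelihood, log input reads as offset, filterByExpr, Benjamini-Hochberg adjustment) in R 4.3.3, after a trial on simulated data, with DESeq2 1.42.0 and limma 3.58.1 as alternatives. Pool values were compared with exact permutation tests (numpy 2.4.6, scipy 1.17.1, pandas 2.3.3, Python 3.11.15). Named were the 12 loci of highest mean ratio, the loci at the edge of the top 5% and the 3 longest loci. The 15 genes named had the highest mean ratio among the 1005 that passed the limits on locus length and input reads. Others were the 10 genes most covered, the 3 leading members of each list and all H3K36 genes. The 5 loci of smallest p for sex were also named. The lowest locus and other list members were added after their values were seen. A few of these loci and genes are not reported here. Members and lists were chosen with earlier results of these data known. Alternatives were the FDR limit, pools left out, pseudocount 5, input minimum, locus length, ChIP or input reads alone, other tools and a replicate block.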

Additional observations from a re-analysis of the deposited data

Results flagged for a closer look

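Within groups of 5 pools of the same sex, 4 of 84 groups of values had a pool far from the other 4, at a limit that chance passes in about 1 in 20 groups. Female pool 4 covered 61.6 Mb against at least 98.4 Mb in the other female pools, and without it 11167 loci were shared in place of 7994. At the Cspp1 locus just below the high-ratio loci, female pool 4 had a centred log2 ratio of 0.49 and the next female pool 0.14. At the Gpatch1 locus, male pool 3 had 1.16 and the next male pool 0.81. At the 63.8 kb locus around Gm15319, male pool 1 had -0.73 and the next male pool -0.23. Male pool 1 was also the lowest of the 10 pools over all loci, with a median of -0.40.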

How the results depend on the processing

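Of 203 alternatives computed, 171 were labelled as unchanged, 28 as moved, 2 as weaker and 2 as reversed. A count was unchanged within a set factor of the main count, and a gene-body share within the counting interval of the main share. A pool difference had to keep its sign and pass its exact test. All 54 alternative values of single loci and genes differed from the main value by less than its SD over pools. Sharing depended most on which islands and pools were used: 247 loci and 536 genes with an FDR of at most 0.01, 12299 loci and 3269 genes without female pools 1, 3 and 4 (chosen after seeing the data), 26983 loci and 6423 genes without the 8 pools whose gene-body share lay below the genome's, and 8089 to 11167 loci and 2080 to 2826 genes with 1 pool left out. The share of high-ratio loci in gene bodies was 79.8 to 86.7% with 1 pool left out (86.7% without male pool 4, 86.1% without female pool 1 and 86.4% without female pool 4). It was 89.9% without female pools 1, 3 and 4 (234 of the same loci) and 96.4% without the 8 pools (84 of the same loci). These pools were left out for their low gene-body share, so the choice itself favours these higher values. The share was 74.0% when ranked by the lowest pool (302 of the same loci). Ranked by ChIP reads per kb alone, it was 34.0% (53 of the same loci). With input reads per kb in place of the ratio, the gene-body difference was -0.23 and the 3′ difference -0.11, both in the opposite direction. With only the 2 pools above the genome's share, these differences were 0.44 and 0.23, where the exact test cannot go below p = 0.5. The 2 pools were likewise chosen by gene-body share.

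For sex, DESeq2 size factors on ChIP reads with no input called 1 locus, and leaving out 1 pool called 0 to 2 (1 without male pool 3, 2 without male pool 5 and 2 without female pool 1). The same replicate numbers in males and females did not pair the pools (correlations of deviations from -0.07 to 0.03), and with the number as a block edgeR called 0 loci (344 unadjusted). Islands of an FDR above 0.01 and low reads per locus limit single values, and the cause of these changes was not tested. The interval used to label the gene-body share covers counting error only.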
